A study of Mus musculus with 38 samples.

Results

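Cdx1, Cdx2 and Cdx4, T (Brachyury), Evx1, Mixl1 and Nkx1-2 encode DNA-binding factors of the primitive streak and of the posterior end of the embryo. They were chosen by name as a family of related function, and all 7 were found among the 29267 genes of each gene table by matching the Ensembl identifiers to their symbols. RNA was sequenced in 38 mouse libraries in 18 groups. They include bulk cultures taken from the primed toward the naïve pluripotent state (the primed to naïve transition, PNT). They ask what c-Jun and the c-Jun N-terminal kinases (JNK) do to that transition. Cdx4 never held more than 11 reads in a library and did not pass the filter on low counts of any main fit, so the main tests cover the other 6 genes.

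The primitive streak is the furrow of the gastrulating embryo through which epiblast cells leave to form mesoderm and endoderm. T is the T-box factor that marks it and is needed for posterior mesoderm, and WNT signalling keeps it on. The caudal-type homeobox factors Cdx1, Cdx2 and Cdx4 pattern the trunk and tail through the Hox clusters, and Cdx2 is also required in the trophectoderm of the blastocyst. Evx1 marks the posterior streak, Mixl1 is a streak gene needed for endoderm, and Nkx1-2 marks the caudal epiblast from which spinal cord and paraxial mesoderm arise.

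In mm10 (GENCODE M21) the genes lie apart on 7 chromosomes. T (ENSMUSG00000062327) is at chr17:8434423-8442496 on the plus strand, Cdx2 (ENSMUSG00000029646) at chr5:147300805-147307270 on the minus strand, and Evx1 (ENSMUSG00000005503) at chr6:52313498-52318378 on the plus strand. Mixl1 (ENSMUSG00000026497) is at chr1:180693043-180697034, minus strand, Nkx1-2 (ENSMUSG00000048528) at chr7:132594878-132599637, minus strand, Cdx4 (ENSMUSG00000031326) at chrX:103321398-103330592, plus strand. Cdx1 (ENSMUSG00000024619) is on a chromosome of its own. Evx1 starts 52.6 kb from the end of Hoxa13, at the edge of the HoxA cluster. Its first 1335 bases are overlapped by the antisense gene Evx1os, and as strand was not stated for the counting, reads of the 2 genes cannot be told apart there.

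Because most of the family rose together on day 1, the bases before their starts are shown for 3 members that rose. RefSeq's promoter table (GRCm38.p6) held 5 of the 7 genes, not Cdx1 or Mixl1. The 250 bases before each start were searched on both strands, in these exact letters only. They were CTTTGAT (a form of the TCF/LEF site of WNT signalling), TGANTCA (AP-1, the site of c-Jun), TCACACC (the core of the T-box site) and TTTATNG (CDX). Capitals mark a match to the CDX motif in the sequences of T (chr17:8434173-8434422, plus strand), Evx1 (chr6:52313248-52313497, plus strand) and Cdx2 (chr5:147307271-147307499, minus strand, shortened to end at the GENCODE start), each written 5′ to 3′.
T: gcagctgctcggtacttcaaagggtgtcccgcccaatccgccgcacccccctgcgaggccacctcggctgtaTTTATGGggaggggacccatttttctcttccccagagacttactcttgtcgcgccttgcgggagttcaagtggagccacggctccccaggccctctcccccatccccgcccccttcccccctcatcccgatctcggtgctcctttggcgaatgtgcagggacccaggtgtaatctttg
Evx1: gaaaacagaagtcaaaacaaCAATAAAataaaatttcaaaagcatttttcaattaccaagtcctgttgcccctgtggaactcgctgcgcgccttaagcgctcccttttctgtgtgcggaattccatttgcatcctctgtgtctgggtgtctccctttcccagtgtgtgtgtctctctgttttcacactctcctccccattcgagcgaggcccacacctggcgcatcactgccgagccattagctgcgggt
Cdx2: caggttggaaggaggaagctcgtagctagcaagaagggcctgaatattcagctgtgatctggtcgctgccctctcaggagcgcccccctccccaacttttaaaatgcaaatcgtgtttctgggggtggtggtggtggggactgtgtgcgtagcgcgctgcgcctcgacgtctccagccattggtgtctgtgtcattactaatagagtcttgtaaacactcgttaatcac

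T held TTTATGG from 178 to 172 bases before its start and Evx1 held the reverse match CAATAAA from 230 to 224 bases before its start. The other 3 motifs, in the letters searched, were in none of the 5 windows, and Cdx2, Cdx4 and Nkx1-2 held none of the 4. Other forms of these sites were not searched for, so their absence near these genes is not shown. Of all 32851 promoter windows of this length, 9.81% held the CDX motif, 3.21% the TCF/LEF motif, 6.75% the AP-1 motif and 3.33% the T-box core.

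The reference groups were embryonic stem cells (ESC, naïve, n = 5) and epiblast stem cells (EpiSC, primed, n = 4). EpiSC with a stable Klf4 transgene (kEpiSC, n = 2), delivered by lentivirus and selected as a line, were put into the reprogramming medium iCD1 and sampled on days 1, 2 and 3 (n = 2 a day). A parallel course received SP600125, an inhibitor of JNK (JNKi, n = 2, 3 and 2). The induced pluripotent cells that arose from kEpiSC are called kiPSC (n = 2). EpiSC-like cells made from ESC, either wild type (WT) or with c-Jun knocked out by CRISPR with guides on both sides of its single exon (JunKO), gave 12 libraries: primed iEpiSC and kiEpiSC with 1 library of each per genotype, and kiEpiSC on day 3 of iCD1, without or with JNKi (n = 2 for each genotype in each medium). According to the methods of the study, EpiSC-like cells were made in the presence of the WNT pathway inhibitors XAV939 and IWR-1. By the same methods, ESC were kept with CHIR99021, PD0325901 and LIF, and EpiSC with Activin A and bFGF. Cell state and medium therefore cannot be told apart between ESC and EpiSC. Neither the labels nor the methods say how many clones stood behind the JunKO cells, or which dose of JNKi the sequenced cells received.

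Libraries held from 2165000 to 15945000 counts in all, deepest in kEpiSC and shallowest in EpiSC. Jun transcripts, which check the labels, were at 27 to 72 counts in the 6 JunKO libraries and at 206 to 1154 in the 6 WT libraries. ESC, kiPSC and the primed groups matched their labels: Fgf5, a primed marker, was at 0 TPM in all ESC and at 61.8 to 169 in EpiSC, and Esrrb, a naïve marker, was at 259 to 352 TPM in ESC and at 1.04 to 1.94 in EpiSC. Klf4 in the iEpiSC libraries (36.6 and 36.3 TPM) stood far above EpiSC (0.52 to 1.94), and whether iEpiSC lack the transgene was not tested. EpiSC replicate 1 stood apart from the other 3 in the streak genes, and the results that rest on it are given with and without it. Gene length exceeded effective length by about 73.5 bases in ESC replicates 1 to 4 and by more in all others, and 1 alternative kept ESC replicate 5 only. That library stood apart in a list of 10 fibroblast genes, at 473 TPM in sum against 5.64 to 41.3 in ESC replicates 1 to 4. The reason was not tested. In bulk RNA, fewer cells of a type and less RNA per cell cannot be told apart. The study describes RNA-seq replicates as biological without saying how the cultures were kept apart, so a p-value reflects only how far its libraries spread.

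**Figure D1:**
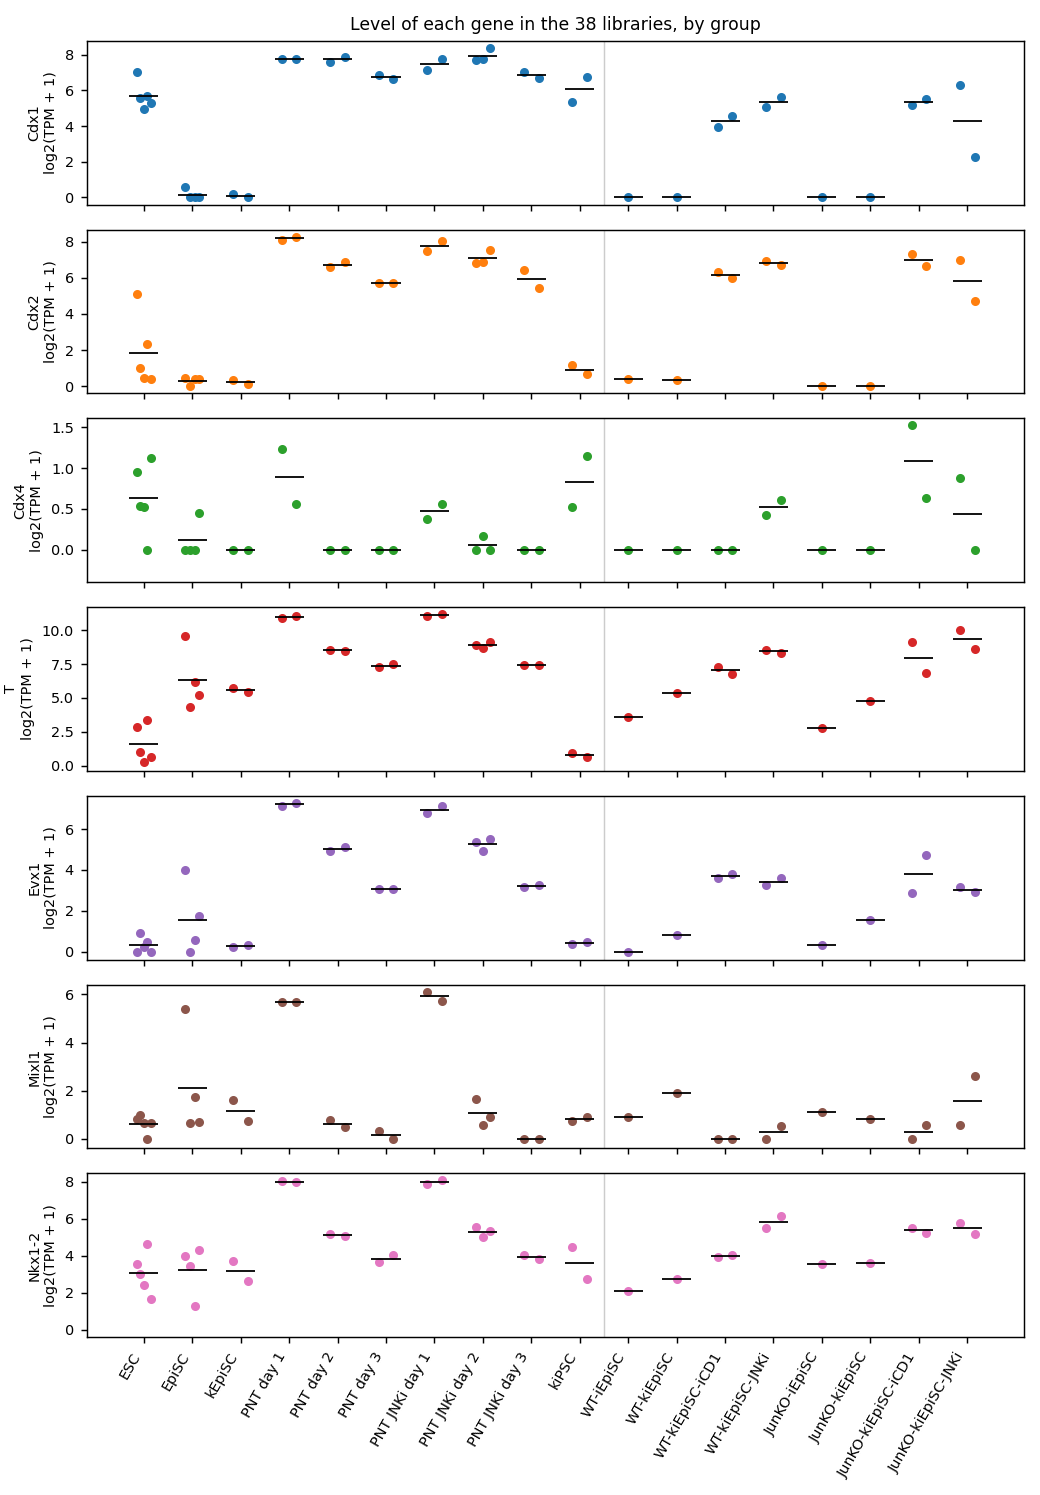
Level of the 7 genes in each of the 38 libraries, as log2(TPM + 1), with groups on the horizontal axis. Points show libraries, and bars show group means on that scale. In 6 of the 7 genes a day 1 group stood at or near the top, whereas Cdx4 stayed at or below 1.9 TPM everywhere.

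TPM, the share of transcripts after scaling to a fixed sum per library, are scaled for gene length, so levels of different genes can be compared. T was the most abundant, with group means from 0.735 TPM in kiPSC to 2261 in PNT day 1 with JNKi. On PNT day 1 it ranked 47th of all 29267 genes by mean TPM. Cdx2, Nkx1-2 and Cdx1 ranked 515th, 597th and 713th there, Evx1 1193rd, Mixl1 3750th and Cdx4 13527th.

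The order of the groups differed among the genes. T, Mixl1, Evx1 and Nkx1-2 had both day 1 groups at the top, and for T, Evx1 and Mixl1 these 2 groups did not overlap with each other or with the next group. For Cdx2 the 2 day 1 groups also led, but the JNKi group overlapped with JNKi day 2. Cdx1 differed: the 4 groups of days 1 and 2 led in an order whose neighbours overlapped (means 179 to 252 TPM), day 3 followed at 107 to 117, and kiPSC (73.8) and ESC (59.2) came before the WT and JunKO cells. The primed groups were the lowest for Cdx1, at or below 0.48 TPM in every library, while for T the lowest were JunKO-iEpiSC (5.85), ESC (3.47) and kiPSC (0.735). For Nkx1-2 the 11 groups from WT day 3 (mean 14.8 TPM) down to WT-iEpiSC (3.34) formed a run in which 9 of 10 neighbouring pairs overlapped.

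The first comparison asked how the genes moved when kEpiSC entered iCD1. T rose from 51.6 and 43.05 TPM in kEpiSC to 1984 and 2110 on day 1, a log2 fold change of 5.19 ± 0.19 (standard error; edgeR quasi-likelihood test, Benjamini-Hochberg adjusted p = 4.90e-11). Cdx2 rose from 0.26 and 0.10 TPM to 274 and 306, by 10.43 ± 0.53 (edgeR, adjusted p = 9.42e-10). Cdx1 went from 0.14 TPM and 0 to 219.9 and 220.2. All day 1 libraries lay far above both kEpiSC libraries for these 3 genes, and the share of all genes that separated in this way was not counted.

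Only 2 counts of Cdx1 were seen in the 2 kEpiSC libraries together, against 3239 on day 1. The ratio was 2982 with an exact 95% interval of 825 to 24638, which covers counting error only. Evx1, with 0.16 and 0.25 TPM in kEpiSC, reached 141 and 152, and its log2 fold change was 9.78 ± 0.32. The antisense Evx1os rose with it by 10.70 ± 0.47, from 1 count in both kEpiSC libraries to 672 and 678.

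Mixl1 and Nkx1-2 also rose, from a level that was not zero. Mixl1 was at 2.03 and 0.66 TPM in kEpiSC and at 51.2 and 51.1 on day 1 (5.11 ± 0.43). Nkx1-2 was at 12.1 and 5.32 TPM and then at 256 and 255 (4.75 ± 0.42). Thus 6 of the 6 genes tested were called higher on day 1 (edgeR, adjusted p from 1.61e-11 to 3.42e-07), where 23.2% of the 14892 genes tested were called higher and 23.1% lower. A gene near 0 in kEpiSC enters the test only through the groups in which it is high, and a call for Cdx1, Cdx2 or Evx1 follows in part from that. Cdx4 had 11 and 4 counts on day 1 and none in kEpiSC, which gives a level at least 9.21-fold higher with a floor of 3 counts over the kEpiSC libraries.

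**Figure D2:**
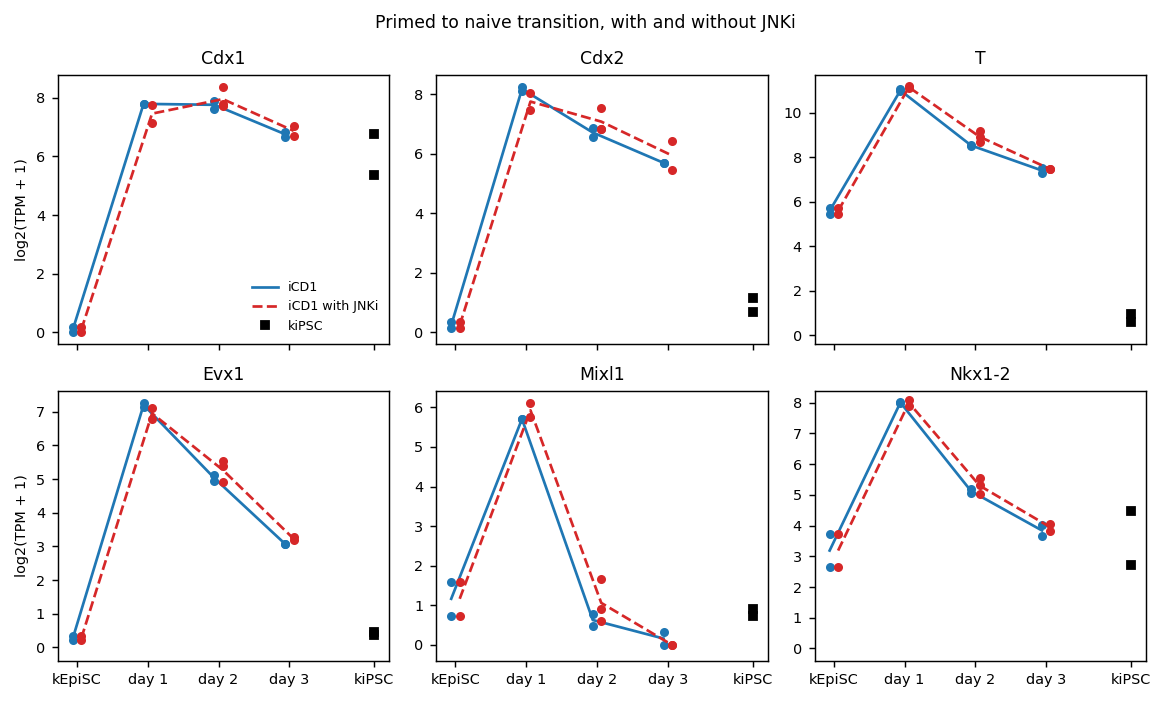
Course of the 6 genes tested from kEpiSC through days 1 to 3 in iCD1 (solid line) or iCD1 with JNKi (broken line), and in kiPSC (squares), as log2(TPM + 1). Points are libraries and lines join the means of the groups. All 6 genes were higher on day 1 than in kEpiSC. Mixl1 was back at or below 2.18 TPM on day 2 in both media, whereas Cdx1 stood at 195 and 237 TPM on day 2 in iCD1.

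From day 1 the genes parted. Mixl1 was at 0.72 and 0.39 TPM on day 2, which was 1.09% of its day 1 mean (log2 fold change -6.44 ± 0.54). Nkx1-2 kept 13.2% of its day 1 level (35.1 and 32.4 TPM), T 17.9% (374 and 361) and Evx1 21.6% (29.5 and 34.0). Cdx2 kept 36.2% (94.5 and 115), a log2 fold change of -1.43 ± 0.29.

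Cdx1 alone was not called between days 1 and 2. It was at 195 and 237 TPM on day 2, around its day 1 values, and its difference was 0.01 with a 95% interval of -0.68 to 0.70. The 5 others were called lower (edgeR, adjusted p from 1.42e-07 for T to 0.00282 for Cdx2), where 9.38% of all genes tested were called lower and 7.1% higher. With all 38 libraries in one fit, T (adjusted p = 0.159) and Cdx2 (0.362) were not called.

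On day 3 Cdx1 followed, at 113 and 101 TPM, or 48.7% of its day 1 level. Cdx2 was at 50.6 and 51.2 TPM (17.6%) and T at 157 and 180 (8.23%). Nkx1-2 was at 11.6 and 15.3 TPM (5.26%) and Evx1 at 7.40 and 7.42 (5.05%). Their libraries did not overlap with those of day 2, but the share of all genes for which this held was not counted.

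These 5 genes were called lower on day 3 than on day 2, where 6.1% of all genes tested were lower and 6.13% higher. The log2 fold changes were -1.15 ± 0.34 for Cdx1, -1.18 ± 0.30 for Cdx2, -1.31 ± 0.17 for T, -1.49 ± 0.41 for Nkx1-2 and -2.22 ± 0.22 for Evx1 (edgeR, adjusted p from 3.13e-05 to 0.0365). The calls of Evx1 and T held without any one library. Those of Cdx1, Cdx2 and Nkx1-2 were lost without any one of the 4 libraries, which left 2 calls of 5, and with all 38 libraries in one fit there were 0. Mixl1 had 2 and 0 counts on day 3.

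Against kEpiSC, 4 genes were still higher on day 3. The log2 fold changes were 10.08 ± 0.72 for Cdx1, 7.82 ± 0.56 for Cdx2, 5.41 ± 0.40 for Evx1 and 1.41 ± 0.17 for T (edgeR, adjusted p from 2.33e-08 to 5.83e-06). Mixl1 was lower by then, with a ratio of 10.5 (exact 95% interval 2.76 to 88.8, 53 counts against 2) and an edgeR adjusted p of 0.0124, and Nkx1-2 was back near its start (0.38 ± 0.42). Without kEpiSC replicate 1 or day 3 replicate 2 the call of Mixl1 was lost, and with all 38 libraries in one fit those of T (edgeR, adjusted p = 0.278) and Mixl1 (0.205) were. Of all genes tested, 25.2% were higher and 25.4% lower in this comparison.

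**Figure D3:**
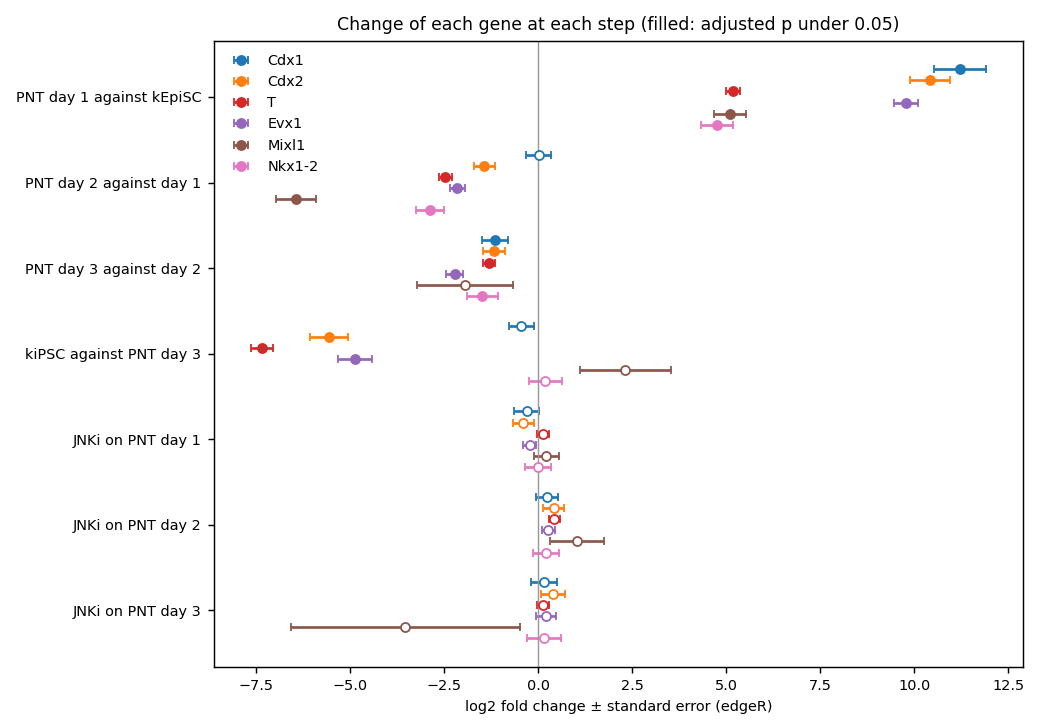
Log2 fold change of the 6 genes at each step of the transition and with JNKi on each day, with edgeR standard errors. Filled symbols have a Benjamini-Hochberg adjusted p under 0.05 over 14892 genes. All 6 genes are filled on day 1 against kEpiSC and none with JNKi.

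In kiPSC, the reverted cells that arose after the course, the genes split. T was at 0.95 and 0.52 TPM, against day 3 a log2 fold change of -7.35 ± 0.30. Cdx2 was at 1.24 and 0.59 TPM (-5.56 ± 0.50), and Evx1 at 0.29 and 0.36 (-4.87 ± 0.45). These 3 genes were called lower (edgeR, adjusted p from 5.51e-11 to 2.03e-07), among 28.6% of all genes tested.

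Cdx1 was not among them. The 2 kiPSC libraries differed, at 40.3 and 107 TPM, and overlapped with day 3 (-0.45 ± 0.34, 95% interval -1.18 to 0.28). Nkx1-2 was at 21.03 and 5.63 TPM (0.19 ± 0.43), and without kiPSC replicate 1 it turned to -1.15 and was called lower (edgeR, adjusted p = 0.0322). Set against the kEpiSC from which they came, kiPSC had more Cdx1 (ratio 925, exact 95% interval 255 to 7652, 868 counts against 2), among 28.2% of genes called higher. They had less T (-5.94 ± 0.32, edgeR adjusted p = 6.76e-10), among 29.2% called lower. Without kiPSC replicate 2, this comparison called 4 of the 6 genes in place of 2.

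Other genes of the same region of the embryo were followed as lists, in which a gene near 0 at the start could again be tested only through a later rise. Of 20 posterior streak and tailbud genes tested of 21, 14 rose on day 1 and none fell. Hoxb1, expressed in the posterior streak, rose by 10.45 ± 0.36, Msgn1, a factor of presomitic mesoderm, by 10.39 ± 0.61, the ligand Wnt3a by 7.71 ± 0.56 and the Notch ligand Dll1 by 6.90 ± 0.58 on the log2 scale (edgeR, adjusted p at or below 1.81e-07). The median over the list was 5.02, against 0.00 over all genes. The summed level of the list was 82.2 to 131 TPM in kEpiSC and 1891 to 1927 on day 1.

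The WNT feedback genes, which dampen or report WNT signalling, rose in 10 of 12 cases and fell in 1, with Notum at 7.89 ± 0.45, Sp5 at 5.44 ± 0.44, Axin2 at 4.52 ± 0.42 and Nkd1 at 3.81 ± 0.24 (median 1.60). Sp5 also stands in the posterior list. Of 22 trunk and posterior Hox genes, 21 rose (median 7.86), led by Hoxb4 at 11.38 ± 0.65. The anterior streak and endoderm genes mostly went the other way, with 8 of 15 lower and 2 higher. The lower ones included Cer1 (-7.34 ± 0.63), Otx2 (-6.39 ± 0.56), Gsc (-4.15 ± 0.68) and Eomes (-2.94 ± 0.46), all factors or antagonists of the anterior streak and the endoderm. Otx2 also stands in the primed list and Eomes in the trophectoderm list, so these lists are not independent.

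The lists separated after day 1. On day 2, 3 posterior streak genes were higher and 3 lower, while 17 of 22 Hox genes rose further (Hoxa9 by 4.24 ± 0.59) and none fell. On day 3, 12 of 20 posterior streak genes fell and none rose, with Mesp2 at -7.43 ± 1.25, Mesp1 at -4.98 ± 1.30, Tbx6 at -4.40 ± 0.49 and Wnt3a at -3.64 ± 0.60. None of the 22 Hox genes passed the test from day 2 to day 3. In kiPSC 13 of the 20 posterior streak genes and 20 of the 22 Hox genes were lower than on day 3.

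**Figure D4:**
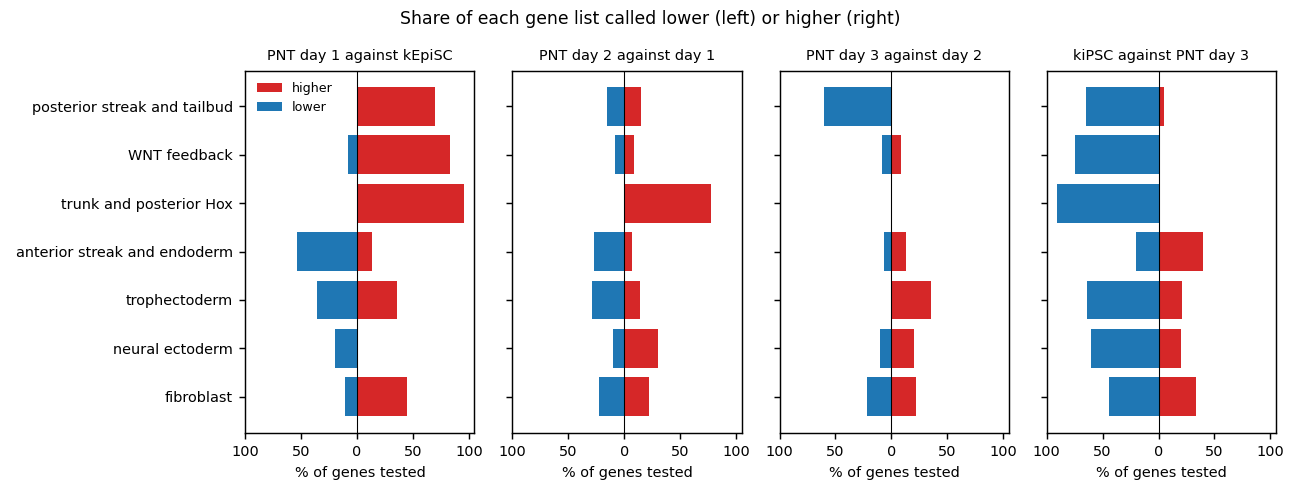
Share of the genes tested in each list that were called higher (right, red) or lower (left, blue) at 4 steps of the transition (edgeR, adjusted p under 0.05). Posterior streak genes are called higher on day 1 in 14 of 20 cases and lower on day 3 in 12 of 20, while Hox genes rise on days 1 and 2 and fall in kiPSC.

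Cdx2 also marks trophectoderm, so that list was read beside it. On day 1, 5 of 14 trophectoderm genes were higher and 5 lower (median -0.31), with Gata2 at 6.00 ± 0.82, Hand1 at 3.8 ± 0.58 and Elf5, a trophoblast factor, at 2.91 ± 0.90 (edgeR, adjusted p = 0.015), and with Eomes at -2.94 ± 0.46. Its summed level was 355 to 367 TPM in kEpiSC and 444 to 485 on day 1, 189 to 193 on day 2, and 334 to 394 on day 3. From day 2 to day 3, 5 of the 14 genes were called higher and none lower, among them Krt7 at 2.92 ± 0.53 and Gata3 at 2.88 ± 0.48. The placental marker Tpbpa was at 0 in all 18 groups, and the part of trophectoderm cells in the level of Cdx2 was not tested. Of 10 neural ectoderm genes none rose and 2 fell on day 1, and of 9 fibroblast genes 4 rose and 1 fell. The naïve list had 2 of 10 genes higher and 1 lower on day 1, with Nanog at -3.44 ± 0.53. The primed list had 7 of 10 lower and 1 higher, with Fgf5 at -6.13 ± 0.62. Of the 3 shared pluripotency genes Pou5f1 fell by 1.53 ± 0.24 and Sox2 rose by 0.87 ± 0.27 on the log2 scale. On day 3 the summed level of these 3 was 119 to 128 TPM, against 2113 to 2138 in kEpiSC, with Pou5f1 at -6.00 ± 0.30. The naïve list stood at 73.5 to 115 TPM on day 3, against 7196 to 8628 in kiPSC. The study calls the PNT inefficient, and which cells of the bulk became kiPSC was not tested.

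ESC and EpiSC, which also differed in medium, differed in which of the genes they held. Cdx1 was a gene of ESC, with 132.6, 45.9, 29.6, 50.2 and 37.6 TPM in replicates 1 to 5, against 0.48 TPM in EpiSC replicate 1 and 0 in the other 3. With 1252 counts against 1, the ratio was 537 (exact 95% interval 96.3 to 21242). The call held in all 17 alternatives (edgeR, adjusted p = 7.18e-06). Cdx2 was called higher in ESC as well (4.86 ± 1.61, edgeR adjusted p = 0.0219), but 33.3 TPM in ESC replicate 1 stood against 0.97, 0.38, 3.97 and 0.30 in the others and at most 0.36 in EpiSC. Without ESC replicate 1 or 4, Cdx2 did not pass the filter on low counts, and its call was lost without EpiSC replicate 2, 3 or 4 (edgeR, adjusted p from 0.0503 to 0.0604) and with limma (0.0565 and 0.104).

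T was a gene of EpiSC, at 764, 19.4, 70.9 and 36.2 TPM in replicates 1 to 4, against 6.22, 1.01, 0.21, 9.39 and 0.53 in ESC. Its log2 fold change was -6.20 ± 1.19 (edgeR, adjusted p = 0.00081), and -3.59 (adjusted p = 0.00246) without EpiSC replicate 1. The groups did not overlap for T, and the share of all genes for which this held was not counted.

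Evx1 and Mixl1 were also called lower in ESC. Evx1 had 14.7 TPM in EpiSC replicate 1 and 0, 0.47 and 2.32 in the other 3 (edgeR, adjusted p = 0.00892), and without replicate 1 or 4 it did not pass the filter. Mixl1 had 40.6 TPM there and 0.60, 2.38 and 0.62 in the others (edgeR, adjusted p = 0.00766), and the adjusted p was 0.335 without it. In EpiSC replicate 1 the anterior streak list was also high, at 619 TPM in sum against 178 to 368, and the posterior streak list stood at 473 against 83.8 to 331. Nkx1-2 did not separate the groups (-0.28 ± 0.72). Thus 2 genes were called higher in ESC, where 27.1% of 13923 genes were, and 3 lower, where 23.8% were. The call count was 3 without EpiSC replicate 1 and 1 with ESC replicate 5 only.

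Neither the transgene nor the route to the naïve state gave a call. Between kEpiSC and EpiSC 0 of 6 genes were called (edgeR; 1 at an unadjusted p under 0.05, and 0 by DESeq2), where 1.26% of all genes were. The gene under 0.05 was Evx1, at -4.79 (95% interval -8.39 to -1.19, edgeR unadjusted p = 0.0129). T differed by -2.22 ± 1.30 with all libraries and by 0.33 without EpiSC replicate 1. The intervals of Cdx1 (-5.53 to 4.64), Cdx2 (-5.25 to 4.62) and Mixl1 (-6.16 to 0.08) were too wide to exclude a large change. Between kiPSC and ESC 0 of 6 were called (0 at an unadjusted p under 0.05, and 0 by DESeq2), where 0.144% of all genes were. The difference of Cdx1 was 0.32 with a 95% interval of -0.77 to 1.42, and that of T -1.95 with an interval of -6.61 to 2.71.

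JNKi was added to ask whether blocking JNK changed the course. T was at 2197 and 2326 TPM on day 1 with JNKi and at 1984 and 2110 without, a difference of 0.12 on the log2 scale with a 95% interval of -0.22 to 0.45. On day 2 the groups did not overlap, though the share of all genes for which this held was not counted. T was then at 479, 411 and 570 TPM with JNKi and at 374 and 361 without. That difference was 0.43 (95% interval 0.11 to 0.74, unadjusted p = 0.0107 and adjusted p = 1 in edgeR). On day 3 it was 0.13 (-0.23 to 0.49).

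For the Cdx genes, Nkx1-2 and Evx1 every interval included 0. Cdx2 was at 176 and 264 TPM with JNKi on day 1 (-0.40, interval -1.0 to 0.20), at 114, 114 and 188 on day 2 (0.41, -0.15 to 0.98), and at 86.4 and 42.5 on day 3 (0.39, -0.27 to 1.05). For Cdx1 the intervals were -1.0 to 0.39, -0.41 to 0.86 and -0.57 to 0.89 on days 1, 2 and 3. For Nkx1-2 they were -0.75 to 0.72, -0.53 to 0.92 and -0.80 to 1.12, and for Evx1 -0.61 to 0.14, -0.10 to 0.63 and -0.35 to 0.74. For these 4 genes and T a change of 4-fold therefore lay outside every interval, whereas Mixl1 held too few counts on days 2 and 3 for such a limit (day 3 interval -10.02 to 2.96).

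No member was called with JNKi on any day. On day 1 this was 0 of 6 (0 at an unadjusted p under 0.05, 0 by DESeq2), and edgeR called 0.0% of all genes (271 at an unadjusted p under 0.05, 0 by DESeq2). On day 2 it was 0 of 6 (1 unadjusted, 0 by DESeq2), among 0.00672% of all genes. On day 3 it was 0 of 6 (0 unadjusted, 0 by DESeq2), among 0.0% of all genes (498 unadjusted, 3 by DESeq2). The effect of JNKi on day 3 was not called different from that on day 1 for any of the 6 (edgeR interaction, 0 unadjusted, 0 by DESeq2; 0.0% of all genes, 339 unadjusted and 1 by DESeq2). The day 3 minus day 1 difference was 0.79 (-0.10 to 1.68) for Cdx2 and 0.02 (-0.47 to 0.51) for T. None of the genes of the posterior streak, WNT feedback or Hox lists was called on any day. On day 3 none of the 10 naïve genes was called with JNKi either, although the median over that list was 1.32. Pou5f1 was not called at 1.30 ± 0.28 (edgeR, unadjusted p = 3.28e-04). The lack of calls is therefore not particular to the members.

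The WT and JunKO cells gave a second view of the transition from EpiSC-like cells. Cdx1 had no count in any of the 4 primed libraries. After 3 days in iCD1 it was at 14.4 and 22.9 TPM in WT (38 and 63 counts) and at 35.8 and 44.5 in JunKO (100 and 143 counts). These levels were at least 32.7-fold and 70.2-fold higher, with a floor of 3 counts over the 2 primed libraries of a genotype. Cdx2 was at 77.9 and 62.2 TPM in WT and at 160 and 98.9 in JunKO, from 1 count each in the WT primed libraries and none in JunKO (ratio 240, exact 95% interval 66.1 to 1989, and at least 290-fold).

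T was at 11.3 and 40.1 TPM in the WT primed libraries and at 157 and 111 on day 3 (2.38 ± 0.73). In JunKO it was at 5.85 and 25.9 TPM and then at 575 and 112 (4.39 ± 0.77). Evx1 went from 0 and 0.77 TPM to 11.3 and 13.1 in WT (5.27 ± 0.96) and from 0.23 and 1.87 to 6.31 and 25.6 in JunKO (4.60 ± 0.81). Nkx1-2 went from 3.34 and 5.77 TPM to 14.1 and 15.6 in WT (1.63 ± 0.34) and from 10.7 and 11.3 to 44.6 and 37.1 in JunKO (1.85 ± 0.28). For each of these genes all day 3 libraries lay above the primed libraries of their genotype. The share of all genes for which this held was not counted, and with so few libraries such separation says little by itself. In each pair of primed values iEpiSC comes first and kiEpiSC second. The log2 fold changes start from the mean of these lines on the log scale, although all day 3 cells were kiEpiSC. A rise from kiEpiSC alone was not tested.

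Thus 5 of 6 genes were called higher in WT (edgeR, adjusted p from 0.00108 to 0.0299), where 16.1% of 12613 genes were, and 5 of 6 in JunKO (adjusted p from 0.000466 to 0.00963), where 15.8% were. A gene near 0 in the primed libraries entered this test only through the day 3 groups. The calls of Cdx1, Cdx2 and Evx1, and those of most Hox genes, follow in part from that. Mixl1 was not called in either, with 14 counts in the WT primed libraries and 0 on day 3 (edgeR, adjusted p = 0.078). With a replicate block it was called lower in both, at -8.26 in WT (edgeR, adjusted p = 0.00443) and -4.34 in JunKO (0.0353), although the numbers were not shown to pair the libraries. Of 18 posterior streak genes tested, 11 rose and 3 fell in WT and 12 rose and 1 fell in JunKO, and of 22 Hox genes 21 and 22 rose. With 1 library per primed state the calls were fragile: leaving out a library left 1 to 3 of them in WT. In JunKO they numbered 1 without JunKO-iEpiSC and 0 without JunKO-kiEpiSC. The rise was not called different between the genotypes for any of the 6 (edgeR interaction, 0 unadjusted, 0 by DESeq2), among 0.0159% of all genes. For T the JunKO minus WT difference of the rise was 2.01 (95% interval -0.33 to 4.35), and for Nkx1-2 0.22 (-0.78 to 1.22).

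**Figure D5:**
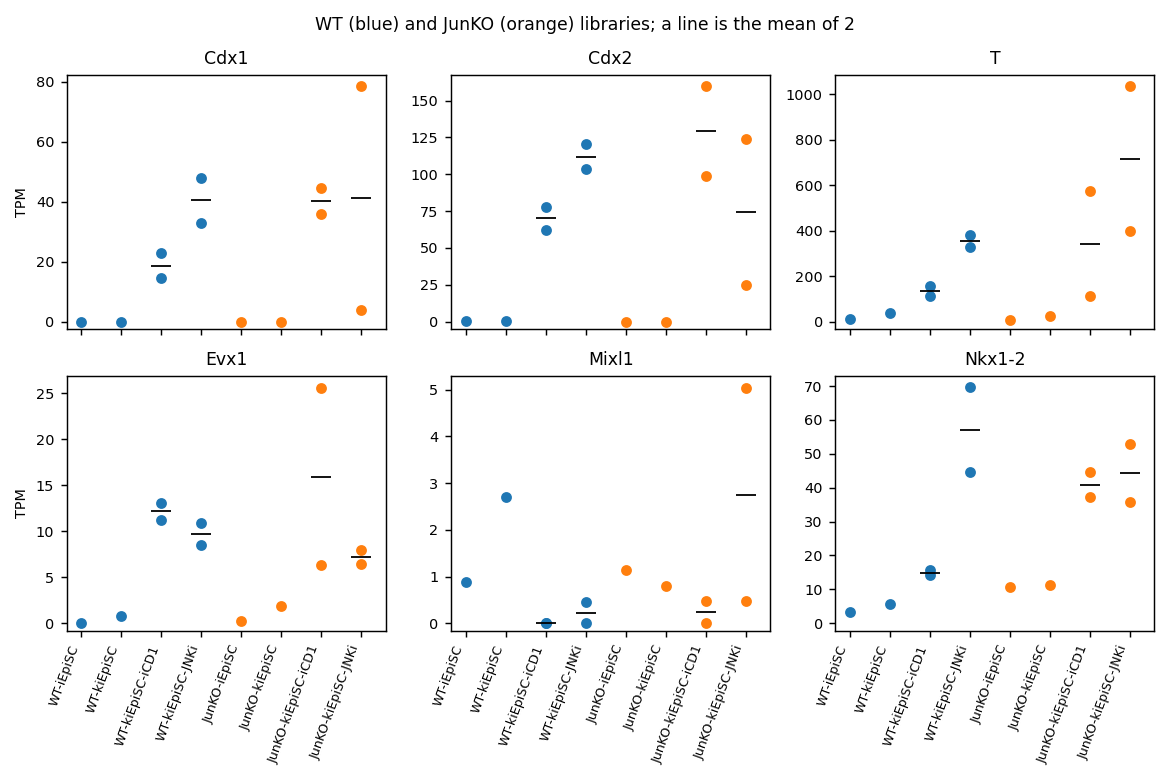
TPM of the 6 genes tested in the 12 WT (blue) and JunKO (orange) libraries on linear axes; points are libraries and lines the means of 2. Cdx1, Cdx2, T, Evx1 and Nkx1-2 are higher in each day 3 library than in the primed libraries of the same genotype. The share of all genes that separate in this way was not counted. The 2 libraries of JunKO with JNKi differ widely in Cdx1 (78.5 and 3.90 TPM).

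Of the comparisons between genotypes and media on day 3, only Nkx1-2 passed. In WT it was at 14.1 and 15.6 TPM in iCD1 and at 44.6 and 69.6 with JNKi, higher by 1.93 ± 0.27 on the log2 scale (edgeR, adjusted p = 0.0332), where 0.333% of all genes were higher. In JunKO it was at 44.6 and 37.1 TPM in iCD1 and at 52.8 and 35.7 with JNKi (0.05 ± 0.25). The other comparison that called it was JunKO against WT in iCD1, at 1.47 ± 0.27 (edgeR, adjusted p = 0.0267), where 1.47% of all genes were higher. The WT iCD1 libraries lay below the 6 others of day 3, which overlapped among themselves. Primed JunKO cells also held more Nkx1-2 than primed WT cells, by 1.25 (95% interval 0.48 to 2.02). That difference was not called (edgeR, unadjusted p = 0.00444, adjusted p = 0.189), so the gap on day 3 cannot be placed in the transition alone.

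Both calls were lost without any one of the 4 libraries compared, and with all 38 libraries in one fit. The WT iCD1 group is shared by both comparisons. The difference between the JNKi effects in the 2 genotypes was -1.88 ± 0.37 for Nkx1-2 (unadjusted p = 0.000358, adjusted p = 0.832 in edgeR), and 0 of 6 genes were called (1 unadjusted, 0 by DESeq2), among 0.0% of all genes (727 unadjusted, 1 by DESeq2). On PNT days 1 to 3 from kEpiSC, JNKi gave Nkx1-2 differences of -0.01, 0.20 and 0.16. In WT 3 of 10 naïve genes were called higher with JNKi too, and in JunKO against WT 5 of 10 were.

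T did not pass the test in these comparisons. With JNKi it was at 380 and 327 TPM in WT, above 157 and 111 in iCD1 (1.34 ± 0.61, edgeR adjusted p = 0.365). In JunKO it was at 1036 and 399 TPM with JNKi and 575 and 112 without (0.96 ± 0.59, adjusted p = 0.544). In iCD1, JunKO exceeded WT by 1.36 ± 0.61 (adjusted p = 0.379), with 112 TPM in JunKO replicate 2 within the WT range, and the difference was -0.24 without JunKO replicate 1.

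The remaining comparisons gave 0 calls of 6 each in edgeR and by DESeq2. The first was JunKO against WT in primed cells (1 at an unadjusted p under 0.05, which was Nkx1-2, and 0.357% of all genes called). The others were the same with JNKi on day 3 (1 unadjusted, 0.92%), and JNKi in JunKO (1 unadjusted, 0.0476%). JunKO with JNKi replicate 2 stood apart from replicate 1. It had 3.90 TPM of Cdx1 against 78.5, 25.1 of Cdx2 against 124, 5.04 of Mixl1 against 0.47, 26.6 of Fgf5 against 0.65, and 27.9 of Otx2 against 2.95. Without replicate 1 Cdx1 was called lower in JunKO than in WT with JNKi (-3.45, edgeR adjusted p = 0.00189) and lower with JNKi than without it in JunKO (-3.47, adjusted p = 0.00183), whereas with both libraries the differences were 0.02 and 0.00.

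The genes whose pattern was most like each member were sought by Pearson's r of log2(CPM + 1) group means over the 18 groups, among 13016 genes with at least 5 CPM in a group. These are descriptions, since groups share libraries' depth, media and ancestry. For Cdx2 they included Hoxa3 (r = 0.987), Limch1, Hoxaas3 and Hoxb1 (0.982). For Evx1 they were Chst7 (0.976), Ephb4, Wnt5b, Evx1os (0.965) and Scara5, and for T they included Pcdh18 (0.96), Rtl8c, Aplnr and Meis3.

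Cdx1 was most like Srcap (r = 0.982), Mfsd1, Irf9, Zfp407 and 2510009E07Rik, and no Hox gene was among them. Mixl1 was most like Cyp11a1 (0.952), Ccno, Oat, Btla and Tmem185a, and Nkx1-2 most like Defa30 (0.948), Slc44a5, Stk32b, Lhpp and Mgat4a. Within the family r was highest between Cdx2 and Evx1 (0.907), Evx1 and Nkx1-2 (0.90) and T and Evx1 (0.899). It was lowest, apart from Cdx4, between Cdx1 and Mixl1 (0.153), and Cdx1 and T stood at 0.477.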

How the data were processed

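Groups and replicate numbers were taken from the titles of the labels. Titles of the WT and JunKO libraries in iCD1 name no day, and day 3 rests on the study's description of these cells. The PNT libraries are titled kiPSC-iCD1 with a day, and kEpiSC as their start also rests on the study. According to the submitters' processing notes and the methods of the study, the authors used bcl2fastq, Bowtie2, RSEM and mm10. Their versions were not stated in what was read here, and the labels name another library kit than the methods. For each gene the deposited tables hold RSEM's expected counts without scaling. The deposited TPM values divide these counts by effective length and scale each library to 1 sum. Deposited FPKM values and effective lengths entered no test.

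Tests used edgeR 4.0.16 (R 4.3.3) on rounded expected counts, with TMM, filterByExpr at a minimum count of 10, quasi-likelihood F tests, and Benjamini-Hochberg adjustment over all genes of a fit (threshold 0.05). Standard errors were obtained by dividing the size of the log2 fold change by the root of F. One fit held ESC, EpiSC, kEpiSC and kiPSC (13 libraries, 13923 genes), another the PNT course with its ends (17 libraries, 14892 genes) and the last WT and JunKO (12 libraries, 12613 genes), where the primed libraries had a term for the line. Cdx4 passed the filter in none. The scripts were tested on simulated data.

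Where a group held at most 3 counts in all, the ratio got an exact 95% interval (binomial), and with 0 counts a bound from a floor of 3 counts over the group. Shares of the day 1 level used mean TPM. Named genes were the 7 members, up to 4 called genes of largest change in a list, label checks and the 5 genes most alike to each member. Some of the latter are not reported here. Members and gene lists (posterior streak and tailbud, anterior streak and endoderm, WNT feedback, Hox, trophectoderm, neural ectoderm, fibroblast, naïve, primed and shared pluripotency) were chosen with earlier results of these data known. Promoters came from RefSeq, gene positions from GENCODE M21. Other settings tried were DESeq2 1.42.0, RLE scaling, a filter of 1 count, limma 3.58.1 with pseudocounts of 1 and 0.1 on log2 TPM, 1 fit of all 38 libraries, leaving out single libraries, blocking on replicate number, and ESC replicate 5 as the single ESC library. Further software was scipy 1.17.1, numpy 2.4.6, matplotlib 3.10.9, pandas 2.3.3 and python 3.11.15.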

Additional observations from a re-analysis of the deposited data

Results flagged for a closer look

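In the groups of 4 or 5 libraries, 14 sets of TPM values of the 7 genes were examined for a library far from its group. Chance meets this criterion in about 1 of 20 groups of evenly varying values. That rate cannot be relied on for sets at 0 or 1 count. EpiSC replicate 1 was such a library for T (763.7 TPM, against 19.4 to 70.9), Evx1 (14.7, against 0 to 2.32), Mixl1 (40.6, against 0.60 to 2.38) and Cdx1 (0.48, from a single count, against 0). ESC replicate 1 was far above the other 4 in Cdx1 (132.6 TPM, against 29.6 to 50.2) and Cdx2 (33.3, against 0.30 to 3.97). At the level of 0 or 1 count, EpiSC replicate 2 was low for Cdx2 (0 TPM, against 0.30 to 0.36) and EpiSC replicate 4 high for Cdx4 (0.37, against 0). None of the 3 tests of a difference between effects called any of the 6 genes.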

How the results depend on the processing

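Of the values for single genes, 1481 kept their side of the threshold under the alternatives, 80 lost a call and 37 gained one. Of the 1481, 1414 kept their sign and 67, none of them called in either setting, did not: without EpiSC replicate 1, kEpiSC against EpiSC went from -2.22 to 0.33 for T, from -3.04 to 0.31 for Mixl1 and from -0.45 to 2.14 for Cdx1, and with ESC replicate 5 only, T in kiPSC against ESC went from -1.95 to 1.45. A further 3 changed sign and were called. Nkx1-2 in kiPSC against day 3 went from 0.19 to -1.15 without kiPSC replicate 1 and to 0.8 without replicate 2. Without either JunKO-kiEpiSC-JNKi library in turn, Cdx1 ranged from -3.45 to 0.95 (JunKO against WT with JNKi, 0.02 with both) and from -3.47 to 0.93 (JNKi in JunKO, 0.00 with both). Counts below are members called, of the 6 tested in the main fits. With no filter beyond 1 count Cdx4 was tested too, so those counts are of 7 and can include it. With all 38 libraries in one fit they were 1 in place of 0 (kEpiSC against EpiSC), 3 in place of 5 (day 2 against day 1, day 3 against kEpiSC, and WT day 3 against primed), 0 in place of 5 (day 3 against day 2), and 0 in place of 1 (JunKO against WT in iCD1, and JNKi in WT). With no filter beyond 1 count they were 6 in place of 3 (kiPSC against day 3), 5 in place of 2 (kiPSC against kEpiSC), 4 in place of 1 (JunKO against WT in iCD1, and JNKi in WT), 3 in place of 0 (JNKi in JunKO), 2 in place of 0 (JunKO against WT with JNKi, and the JNKi effect in JunKO minus WT), and 1 in place of 0 (JNKi on day 2, JunKO against WT primed, and the transition in JunKO minus WT). With limma and either pseudocount they were 2 in place of 5 (ESC against EpiSC, and day 3 against day 2) and 0 in place of 1 (JunKO against WT in iCD1), and with ESC replicate 5 only 1 in place of 5. Leaving out 1 library gave 3 to 5 (ESC against EpiSC), 2 (day 3 against day 2), 4 to 5 (day 3 against kEpiSC), 3 to 4 (kiPSC against day 3), 2 to 4 (kiPSC against kEpiSC), 1 to 3 (WT day 3), 0 to 5 (JunKO day 3), 0 (JunKO against WT in iCD1, and JNKi in WT), 0 to 2 (JunKO against WT with JNKi, and JNKi in JunKO) and 0 to 3 (JNKi effect in JunKO minus WT); the highest of the last 3 came without JunKO-kiEpiSC-JNKi replicate 1. With a lone library in a group, its spread was taken from the other groups. On TMM-scaled CPM, the share of the day 1 level left on day 3 was 16.1% for Cdx2, 7.21% for T and 4.76% for Evx1. The cause of these changes was not tested. The replicate numbers were not shown to pair the libraries. A replicate block gave 4 calls in ESC against EpiSC (Evx1 at -3.21, edgeR adjusted p = 0.082) and 6 each in WT and JunKO day 3 against primed (Mixl1 at -8.26 and -4.34). Low counts limit Cdx4 throughout and Mixl1 after day 1.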
